A study of Mus musculus with 6 samples.

Results

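Sense overlapping circRNAs are the circRNAs that the deposited circRNA table of this study of mouse lung places in the class "sense overlapping", and 456 of the 3696 circRNAs in the table (12.3%) carry that class. They were chosen by this class alone. The table also holds 2845 exonic and 344 intronic circRNAs, beside 18 antisense and 33 intergenic ones. Lung RNA came from male C57BL/6 mice aged 8 to 10 weeks. The PBLI (primary blast lung injury) group received a shock wave of 0.5 bar to the chest under anesthesia and was sampled 6 h later, and the control group was anesthetized in the same way without the blast. Each group had 3 libraries of rRNA-depleted total RNA, each pooling the right upper lobes of 2 mice, so that a pool is the unit of replication and a difference between single animals cannot be seen. In the table the libraries of the PBLI group are called G3, G4 and G5. A mini shock tube blast models the primary wave injury and no other trauma.

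A circRNA forms when the spliceosome joins a downstream 5′ splice site back to an upstream 3′ splice site, which closes the RNA between them into a circle without free ends. Most circRNAs of mammals hold 1 or more whole annotated exons, so both ends of the circle lie at exon edges, just inside an AG on the 5′ side and a GT on the 3′ side. The class "sense overlapping" is commonly given to circles that lie on the strand of a gene without being made of whole annotated exons and without lying inside 1 intron, although the sources used here do not define it for this table. Circles are resistant to exonucleases, and those of transcripts with many exons are well known from lung, brain and cultured cells.

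The ends of the circles were read from the mouse genome (GRCm38, the build mm10 of the table) to see what the class is made of. In the lines below, the 5′ end of a circle is shown as 16 bases before it, the 2 bases that touch it in capitals, and its first 12 bases, and the 3′ end as its last 12 bases, the 2 bases that touch it in capitals, and 16 bases beyond it. All are read 5′ to 3′ on the strand given by the table. The circle of Wdr49, with both ends at annotated exon edges, stands first for comparison. Those of Zfp644, Efnb2 and Galnt18 show an end at an edge beside an end at no annotated edge, those of Gm9762 and Zcchc8 have an end inside an exon, and that of Ddx42 carries the letters AC and CT.
Wdr49, chr3:75358347-75397101, minus strand, 5′ end at an exon edge: ttatcacgttttatctAGgttttgagactc
Wdr49, 3′ end at an exon edge: aggctgggagagGTatgatatgcttatgca
Zfp644, chr5:106618071-106638635, minus strand, 5′ end at an exon edge: ttgttttccattttctAGactaaaggtgtt
Zfp644, 3′ end inside an exon: tcagacaagacaGTaagtagtcatatattt
Efnb2, chr8:8639206-8641256, minus strand, 5′ end inside an intron: ttttcttcatatttccAGggcagggctagt
Efnb2, 3′ end at an exon edge: actacattatatGTaagtatagttctctct
Galnt18, chr7:111597803-111599123, minus strand, 5′ end at an exon edge: agccattcttctctccAGgtgccgcaacct
Galnt18, 3′ end inside an intron: tcacatgaggagGTgaggcgtgccagaacc
Gm9762, chr3:78966402-78966775, minus strand, 5′ end inside an exon: ctgaagagaatccacaAGgaattgaatgac
Gm9762, 3′ end inside an exon: agatagagaaaaGTacaacagaatagctcg
Zcchc8, chr5:123709382-123719528, minus strand, 5′ end inside an exon: accagtaataacatcaAGaacttaaaagaa
Zcchc8, 3′ end at an exon edge: ggaaatacccaaGTatcctacatagtgaat
Ddx42, chr11:106248347-106248622, plus strand, 5′ end inside an exon: agaggtttccttgggaACctgagctggccc
Ddx42, 3′ end inside an exon: cagggaagatgcCTgagcgctcaggttccc

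Every member was flanked by 1 of 2 pairs of letters. Of the 456 members, 370 (81.1%) had AG before and GT after the circle on their own strand, and 86 (18.9%) had AC before and CT after it, which are the letters of GT and AG read on the opposite strand. All 2845 exonic circRNAs had AG and GT, while 132 of the 344 intronic circRNAs (38.4%) had AC and CT, and the whole table held no other letters. The table holds only junctions kept by the authors' calling with STAR and DCC. Whether circles with other letters exist can therefore not be seen here. The authors built the libraries with a strand-marking kit, so the strand is part of the table's call. None of the 86 members with AC and CT had an end at an exon edge of either strand, and none had an earlier record in circBase or in the publications the table cites. In contrast, 132 of the 370 members with AG and GT (35.7%) had such a record.

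Members with AC and CT were short. Their genomic span had a median of 353 bp (152 to 10462), against 5364.5 bp (151 to 98017) for those with AG and GT, and 72 of the 86 held no whole annotated exon. They took 272 of the 1749 junction reads on members (15.6%). The bases at one end were often repeated at the other: in 32 of the 86 (37.2%) at least 5 bases around the junction could be assigned to either end, against 59 of the 370 with AG and GT (15.9%), 154 of 344 intronic circRNAs (44.8%) and 161 of 2845 exonic circRNAs (5.66%). These shares describe the circRNAs, which are not replicates, and carry no test. All 4 circRNAs of the mitochondrial genome in the whole table were members and had AC and CT; 3 of them are assigned to Gm10222 and the other to Cytb, the mitochondrial gene of cytochrome b. The circle of Lyz1, a lysozyme gene with the paralog Lyz2 beside it, had a repeat of 53 bases at its junction, so the junction of its 9 reads cannot be placed within that repeat, and the assignment to 1 of the paralogs is uncertain.

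Placed on the GENCODE M21 exons, the members fell into 3 sets. Both ends lay at exon edges in 42 members (9.21%), 1 end did in 215 (47.1%), and none in 199 (43.6%). In the set with 1 edge the other end lay inside an exon in 119 members and inside an intron in 86. Of the exonic circRNAs 2837 of 2845 had both ends at exon edges, as the name of that class implies. Placement, span and earlier record went together. Members with 2 edges had a median span of 23693.5 bp and 29 of 42 (69.0%) had a record, members with 1 edge had 8989 bp and 93 of 215 (43.3%), and members with none had 435 bp and 10 of 199 (5.03%).

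**Figure D1:**
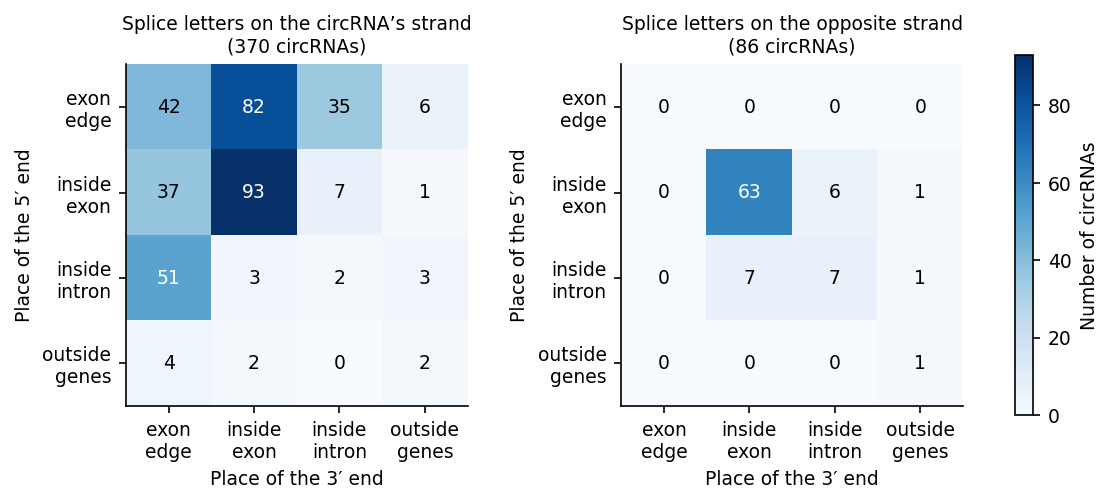
Number of sense overlapping circRNAs by the place of the 5′ end (rows) and of the 3′ end (columns) on GENCODE M21 exons, for the 370 members whose flanking splice letters lie on their own strand (left) and the 86 whose letters lie on the opposite strand (right). On the left 42 members have both ends at exon edges and 93 have both inside an exon, and on the right no end lies at an edge.

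**Figure D2:**
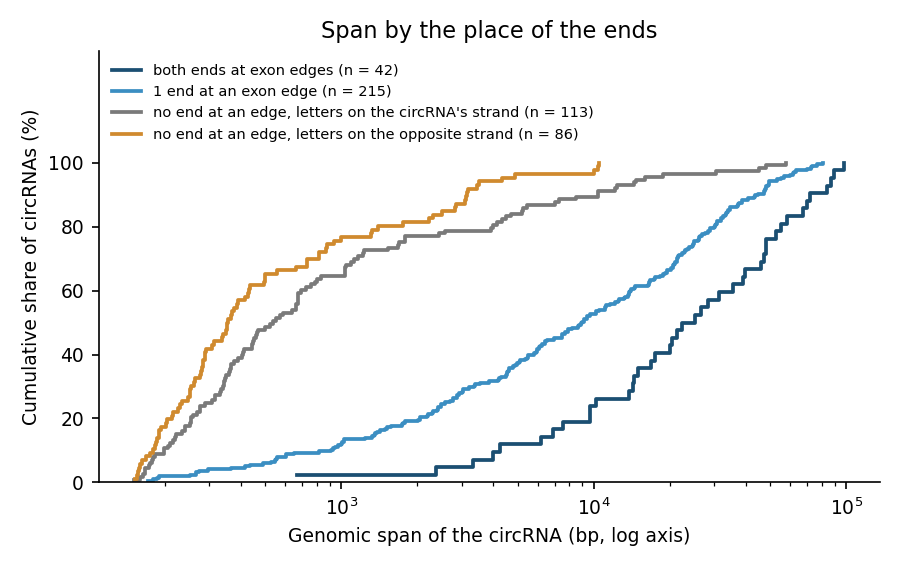
Cumulative share of members (%) against genomic span in bp on a log axis, for members with both ends at exon edges (n = 42), with 1 end at an edge (n = 215), and with none, split by the strand of the splice letters (n = 113 and 86). Medians run from 23693.5 bp with 2 edges to 353 bp with the letters on the opposite strand.

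The letters beyond the 2 touching bases also differed with the place of the end. A mammalian 5′ splice site usually continues GT with AAG or GAG, and a 3′ splice site usually has a run of pyrimidines (C or T) before AG. The letters GTAAG or GTGAG (searched on the circRNA's strand only, starting at the first base beyond the circle) followed the 3′ end of 1664 of 2844 exonic circRNAs that end at an exon edge (58.5%). Among members with AG and GT they followed 66 of 134 3′ ends at exon edges (49.3%), 18 of 44 inside introns (40.9%) and 24 of 180 inside exons (13.3%). The Zfp644 end inside an exon, printed above, is one of the 24, and the Gm9762 end, where GT is followed by aca, is not. On the 5′ side, at least 75% of the 16 bases before AG were C or T at 2065 of 2838 exonic ends at an edge (72.8%). The same held for 111 of 165 member ends at edges (67.3%), 38 of 59 inside introns (64.4%) and 15 of 138 inside exons (10.9%). Member ends inside introns thus had these letters about as often as ends at annotated edges, and member ends inside exons seldom had them. For intronic circRNAs, ends inside introns had GTAAG or GTGAG in 20 of 144 cases (13.9%). A match of letters describes the sequence and does not show that a site was used. Complementary stretches in the flanking introns can bring the ends of a circle together, and a stretch of at least 20 bases between the 1000 bases on either side was found in 16 members (3.51%), 121 exonic circRNAs (4.25%) and 35 intronic circRNAs (10.2%).

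Members shared ends with circles made of whole exons. An exonic circRNA began at the same base in 44 members and ended at the same base in 34, so that 78 members (17.1%) had such a partner, and none shared both. None of the 78 had AC and CT. Set against the summed reads of all its partners, the member had fewer reads in 63 of 78 cases, as many in 9 and more in 6. Some members had several partners, and single partners were not compared. The 78 members had 355 reads and their 103 partners 1507. Among the 6 was the circle of Efnb2, the gene of the membrane ligand ephrin-B2, which had 25 reads against 20 on the exonic circle with the same 3′ end. The circle of Tc2n, in contrast, had 12 reads against 145 on 4 exonic circles that begin at the same base.

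Members of 1 gene also shared ends with each other. Zfp644, a gene of a zinc finger protein, gave 3 members that all close at the same 3′ end inside an exon (position 106618071 of chromosome 5) and begin at 3 different exon edges, with spans of 1572, 20565 and 48775 bp. They had 11, 44 and 13 reads. Cwf19l2 gave 3 members with 1 common 3′ end inside an exon, of 2480, 23423 and 36908 bp. Tulp4, a gene of a tubby-like protein, gave 3 members with 1 common 5′ end at an edge and 3 different 3′ ends at edges, of 39747, 48088 and 69847 bp.

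The deposited length of a member is its whole genomic span. This held for 456 of 456 members and for all 344 intronic circRNAs, whereas it held for only 156 of the 2845 exonic circRNAs, whose length is otherwise that of the exons. A member that spans introns is therefore listed as if it kept them. In 183 members no whole annotated exon lay inside the circle, and the median was 1 exon.

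The members arose from 400 named hosts, and 4 members had no host name. A single member came from 362 hosts, 2 from 31 and 3 or more from 7. Malat1, the gene of an abundant nuclear long noncoding RNA, gave the most, 10 members within a stretch of 6185 bases of chromosome 19, of 189 to 1214 bp and with 42 reads in all. Only 2 of the 10 had an earlier record, and 6 had no more than 3 reads. Zfp644, Zeb1, Cwf19l2, Tulp4, Epas1 and Gm10222 gave 3 members each. The hosts with the most member reads were Zfp644 (68), Zeb1 (44), Malat1 (42), Wdr49 (37) and Gm9762 (36). The 366 hosts tested as mRNAs had a median level of 27.6 FPKM over the 6 libraries, against 21.9 FPKM for the 1757 tested hosts of exonic circRNAs and 9.05 FPKM for all 14760 mRNAs tested. Hosts of members with AC and CT had 32.4 FPKM (72 hosts) and the other hosts 26.5 FPKM (294).

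Few members had many reads. Of the 456, 259 (56.8%) had 2 reads in all, always in 1 library, since every circRNA in the table has at least 2 reads in at least 1 library. Reads came from 1 library only in 311 members, 24 members had at least 10 reads and 15 had reads in all 6 libraries. Those 15 held 373 of the 1749 member reads (21.3%), and 12 of them had an earlier record. In the values that follow, reads are given for Control 1, 2 and 3 and then for PBLI G3, G4 and G5.

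Zfp644 led with 6, 5 and 7 reads in the control group and 12, 4 and 10 in the PBLI group, and its longer circle of 48775 bp had 2, 2 and 2 reads and then 1, 4 and 2. Zeb1, the gene of a transcription factor of epithelial-mesenchymal transition, gave a circle of 72040 bp with 7, 6 and 5 reads and then 8, 3 and 11. Wdr49, which encodes a WD repeat protein, had 2, 10 and 11 reads and then 5, 2 and 7. The groups overlapped in each of these circles, and Control 1 had the fewest Wdr49 reads of the controls. Gm9762 had 10, 3 and 7 reads against 6, 3 and 7. Egfl7, the gene of a factor secreted by endothelial cells, had 4, 2 and 4 reads and then 8, 9 and 5, and is the member with AC and CT that had the most reads. By reads alone each PBLI library of Egfl7 lay above each control library, as in 2.33% of all circRNAs. Per 1000 circRNA reads of the library the groups overlapped, at 1.44, 0.80 and 1.18 in the control group and 1.99, 2.52 and 1.06 in the PBLI group, and the difference did not pass the test across all circRNAs (adjusted p = 0.586, edgeR quasi-likelihood test). BC033430 had 6, 2 and 5 reads and then 7, 5 and 2.

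Efnb2 had 3, 4 and 5 reads in the control group and 2, 5 and 6 in the PBLI group. Galnt18, the gene of an enzyme of the family that starts O-glycans, had 1, 2 and 5 reads and then 4, 6 and 7. Zranb1, the gene of a deubiquitinase, had 1, 3 and 5 reads and then 3, 3 and 6. In these circles the groups overlapped, and no library was at 0. Ddx42, the gene of an RNA helicase of the spliceosome, had 3, 1 and 2 reads and then 5, 3 and 5 on a circle of 276 bp with AC and CT. Nebl, the gene of the actin-binding protein nebulette, had 1, 2 and 3 reads and then 3, 5 and 3. Fat3, the gene of an atypical cadherin, had 2, 3 and 0 reads and then 4, 1 and 9, its reads in G5 being the most in any library. The remaining circles with reads in every library were those of Malat1 (189 bp), with 4, 1 and 4 reads and then 2, 4 and 1, of Tc2n, with 1, 2 and 1 reads and then 1, 1 and 6, and of Lyz1, with 1, 1 and 4 reads and then 1, 1 and 1.

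**Figure D3:**
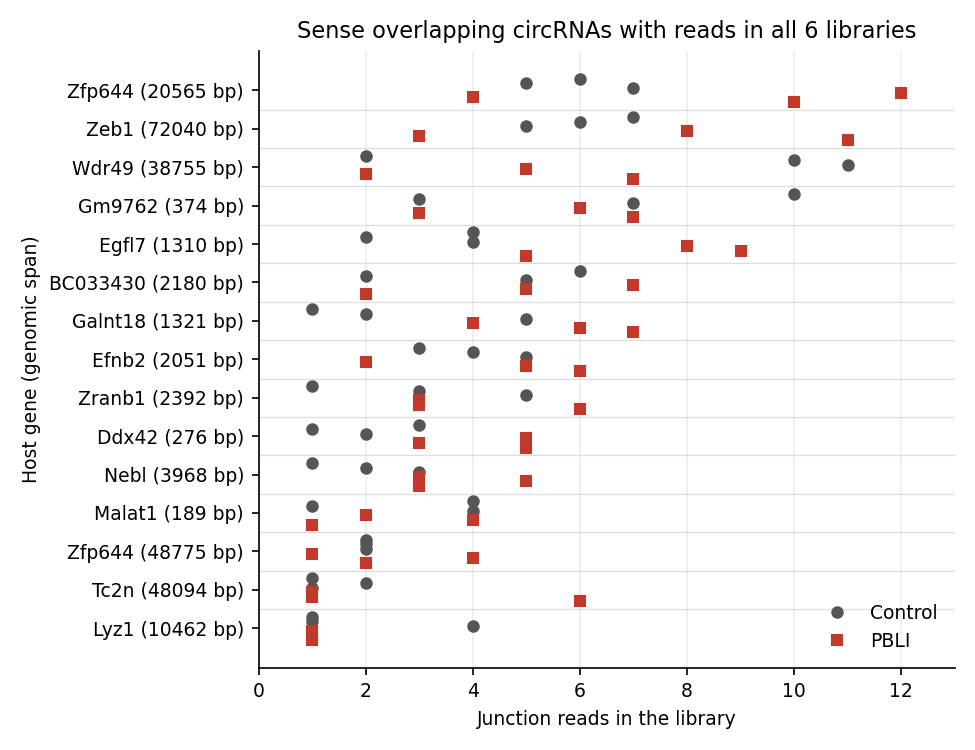
Junction reads per library of the 15 members with reads in all 6 libraries, 1 point per library, with circles for the control group and squares for the PBLI group. The reads are not scaled for depth. The points of the groups overlap or touch in every member but Egfl7 (8, 9 and 5 reads in the PBLI libraries and 4, 2 and 4 in the control libraries), where they overlap once scaled to the circRNA reads of the library.

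The question of the design is what the blast changed. Members took 9.02%, 8.87% and 8.17% of all circRNA reads in Control 1, 2 and 3 and 7.39%, 7.37% and 9.30% in G3, G4 and G5. The libraries held 2513 to 3379 circRNA reads in the control group and 3568 to 4733 in the PBLI group. At these depths the 95% Wilson interval of the lowest share was 6.56% to 8.28% and that of the highest 8.50% to 10.2%, covering counting error only. PBLI G3 and G4 lay below the control libraries and G5 above them. The means were 8.69% ± 0.46 (SD, n = 3) and 8.02% ± 1.11 (SD, n = 3), and the difference was within the spread between pools (exact permutation test, two-sided, p = 0.4, where 3 against 3 cannot go below 0.1). In bulk tissue, fewer cells of a type and less RNA per cell cannot be told apart. Neutrophil markers moved with the group (4 genes, summed level 153 to 262 FPKM in the control group and 354 to 2171 FPKM in the PBLI group, the PBLI library with the lowest sum being G5). Of the 4, Mmp8 passed the test across all mRNAs, none was at 0 throughout, and the part of these cells in the circRNA values was not tested. Markers of alveolar type 2 cells, which define lung tissue, summed to 8719 to 9674 FPKM in the control group and 11530 to 12307 FPKM in the PBLI group. The sums of alveolar type 1 markers (805 to 904 and 948 to 1152 FPKM) and of endothelial markers (637 to 717 and 582 to 614 FPKM) did not overlap between the groups either, while those of the other 6 lists did, and no gene of the 9 lists other than neutrophils passed the test. The share of all mRNAs whose groups do not overlap was not counted, and 19.2% of all mRNAs had p under 0.05 before adjustment (limma). The part of alveolar and endothelial cells in the circRNA values was not tested either.

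**Figure D4:**
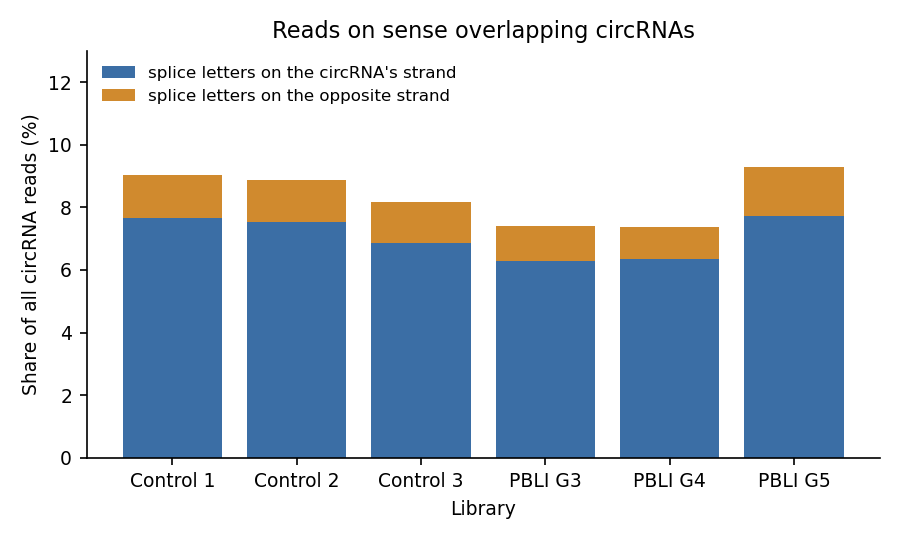
Share of all circRNA junction reads (%) that lay on sense overlapping circRNAs in each library, stacked by the strand of the flanking splice letters. The total is 8.17% to 9.02% in the control libraries and 7.37% to 9.30% in the PBLI libraries, and the letters on the opposite strand make up 1.01 to 1.58 percentage points.

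More members were detected in the PBLI libraries, 130, 130 and 177, than in the control libraries, 114, 107 and 124, and the groups did not overlap (exact permutation test, two-sided, p = 0.1, the smallest possible). The PBLI libraries also had more circRNA reads. When each library was set to the 2513 reads of the shallowest one, the expected numbers were 110, 107 and 112 in the control group and 106, 111 and 139 in the PBLI group, which overlap (exact permutation test, two-sided, p = 0.8). Without G5 the PBLI mean was below the control mean, with a difference of -1.52 circRNAs. Of the 456 members, 149 had reads in the control group only (32.7%, against 23.4% of all circRNAs), 200 in the PBLI group only (43.9%, against 36.0% of all) and 107 in both (23.5%, against 40.6% of all).

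The make-up of the member reads did not differ beyond the spread between pools in any measure tested. Members with an earlier record took 44.8%, 57.4% and 47.5% of the member reads of the control libraries, against 58.2%, 50.6% and 46.4% in G3, G4 and G5 (exact permutation test, two-sided, p = 0.7). The share on members with AC and CT was 15.2%, 15.2% and 15.9% and then 15.2%, 13.7% and 17.05% (p = 0.8, two-sided exact permutation test). In the 160 hosts that gave both sense overlapping and exonic circRNAs, members took 22.5%, 23.5% and 19.9% of the reads of both types in Control 1, 2 and 3 and 17.9%, 18.2% and 24.2% in G3, G4 and G5 (p = 0.4, two-sided exact permutation test). In the hosts with both types, as in the share of all reads, G3 and G4 lay below the controls and G5 above them.

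No single member passed an adjusted threshold. In the edgeR quasi-likelihood test over all 3696 circRNAs, 1 member was lower in the PBLI group at the study's thresholds (2-fold or more, with p of 0.05 or less before adjustment), and 0.487% of all circRNAs were called in that direction. No member was higher, against 0.785% of all circRNAs. The study, which does not name its edgeR test, listed the circles of Zcchc8, Zzz3 and Nbeal1 as lower at these thresholds. The count given here is that of the quasi-likelihood test. At an adjusted p under 0.05 the count was 0 for members and 0% for all circRNAs, the lowest adjusted p of a member being 0.586. At an unadjusted p under 0.05 edgeR gave 1 member and DESeq2 gave 0. The call with the fewest reads in the whole table rested on 6 reads, and 55 of the 456 members had at least that many.

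The member called here was that of Zcchc8, which encodes a subunit of the nuclear exosome targeting complex that directs nuclear RNA to decay. Its reads numbered 3, 1 and 2 in Control 1, 2 and 3 and 0 in each PBLI library. All control libraries thus had reads and no PBLI library did. Set against a floor of 3 reads over the PBLI group, the circle was 2.40-fold lower. That value takes the control reads as exact and is no lower bound on the difference. The fitted log2 fold change, which depends on the prior count, was -4.22 (adjusted p = 0.586, edgeR). The call was lost with each library left out in turn (p of 0.0538 to 0.179 before adjustment), in the edgeR exact test and in DESeq2. The Zcchc8 mRNA was at 10.1 ± 0.46 FPKM (SD, n = 3) in the control group and 9.19 ± 1.05 FPKM (SD, n = 3) in the PBLI group (log2 fold change -0.14, adjusted p = 0.583, limma).

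The circles of Zzz3, the gene of a subunit of a histone acetyltransferase complex, and of Nbeal1, the gene of a BEACH domain protein, each had 5 reads in Control 1 and 0 in every other library. Each rested on 1 library. Against the floor each was 2.00-fold lower in the PBLI group, again no lower bound (adjusted p = 0.586, edgeR). The mRNA of Zzz3 was at 28.6 ± 2.99 and 28.2 ± 1.11 FPKM and that of Nbeal1 at 46.8 ± 2.69 and 49.4 ± 1.55 FPKM (SD, n = 3). The other members with the smallest p on the lower side were Wdr49 (log2 fold change -0.97, adjusted p = 0.586, edgeR) and Jup, the gene of plakoglobin. Jup had 0, 5 and 2 reads in the control group and 1, 0 and 0 in the PBLI group, on a circle of 365 bp with AC and CT (log2 fold change -2.64, adjusted p = 0.586, edgeR).

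On the higher side the smallest p belonged to members with no control reads. Cacna1c, the gene of an L-type calcium channel subunit, had 0, 1 and 5 reads in the PBLI libraries, 1.67-fold higher against the floor. Ywhag, the gene of 14-3-3 gamma, and a Malat1 circle of 672 bp had 2, 3 and 0 reads each. XLOC_000762 and Sparc, the gene of the matrix protein osteonectin, had 1, 1 and 3 reads each, so that all 3 PBLI libraries and no control library had reads. The 4 circles with 5 reads were 1.39-fold higher against the floor, and all 5 had an adjusted p of 0.586 (edgeR). These ratios take the PBLI reads as exact and are no lower bounds. By reads alone, unscaled for the deeper PBLI libraries, every PBLI library lay above every control library in 4 members (0.877%, against 2.33% of all circRNAs), those of Egfl7, Sparc, XLOC_000762 and Cyp26b1, and below in 2 (0.439%, against 0.46% of all circRNAs), those of Zcchc8 and Eci1. Scaled to the circRNA reads of each library, the PBLI libraries lay above in 3 (0.658%, against 1.98% of all circRNAs), Egfl7 no longer being among them, and below in 5 (1.10%, against 1.43%), with Anp32b, Gm10271 and Lyz1 beside Zcchc8 and Eci1. Cyp26b1, the gene of a retinoic acid hydroxylase, had 2, 1 and 1 PBLI reads, and Eci1, the gene of a mitochondrial enoyl-CoA isomerase, had 2, 1 and 1 control reads. Cyp26b1, Eci1, Anp32b and Gm10271 are named after their values were seen. The Cyp26b1 mRNA was at 22.0, 2.97 and 6.85 FPKM in the control libraries and 112, 129 and 20.6 FPKM in G3, G4 and G5 (log2 fold change 3.02, adjusted p = 0.125, limma), where G5 lay below Control 1. The Eci1 mRNA was at 13.5 ± 1.60 and 13.4 ± 1.22 FPKM (SD, n = 3).

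The study placed the Zcchc8 circle in a network with 7 miRNAs, predicted with miRanda and TargetScan. Its text does not state which of the 7 are tied to this circle. The seed of a miRNA (bases 2 to 8, in capitals) binds complementary letters in a target. Only whole seed matches were searched here, for all 7, which differs from the study's prediction and does not test its links. The mature sequences of the 7 miRNAs in RefSeq were as follows.
mmu-miR-3058-5p: uCAGCCACggcuuaccuggaaga
mmu-miR-3063-5p: uGGAGAUCagguuugcacacu
mmu-miR-668-5p: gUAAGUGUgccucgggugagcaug
mmu-miR-7038-3p: cACUGCUCcugccuucuuacag
mmu-miR-761: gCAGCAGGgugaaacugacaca
mmu-miR-7673-5p: uUUGACUGagagguaaggaaug
mmu-miR-9-5p: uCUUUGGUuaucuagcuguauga
No pair of them shares a seed. The span of the Zcchc8 circle, 10147 bp, holds 521 bp of annotated exon in 6 stretches. Letters complementary to a whole seed (GAGCAGT for miR-7038-3p, searched on the circle's strand only) occurred 4 times for miR-7038-3p and once each for miR-668-5p and miR-761 in the whole span, and not for the other 4. In the exon stretches alone, joined and closed into a circle, no seed had a match. Of the 30 members of like span (within 1.25-fold), 36.7% to 80% held a match for a given seed, and 80% did so for miR-7038-3p. Whether the circle keeps its introns is not measured by junction reads.

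Within each library, members were compared with the other large classes in measures that did not choose them. Members with an earlier record took 44.8% to 58.2% of the member reads. For exonic circRNAs the share was 86.7% to 89.6% and for intronic circRNAs 29.4% to 40.6%. The mean difference was -37.0 percentage points from the exonic and 13.9 from the intronic circRNAs, with the same sign in 6 of 6 libraries each (exact sign-flip permutation test, two-sided, p = 0.031, the smallest possible, 0.0375 after adjustment over 6 comparisons). A record is a fixed trait of a circRNA, and 28.9% of members, 74.3% of exonic and 7.56% of intronic circRNAs in the table had one. The test thus covers the spread between pools read on the same list of circRNAs. A detected member had 2.22 ± 0.16 reads (SD, n = 6 libraries), fewer than an exonic circRNA (2.56 ± 0.20) in 6 of 6 libraries (exact, same p). The value of an intronic circRNA, 2.74 ± 0.28, rested on a single circle of Tulp4, which held 287 of the intronic reads (21.1%). Without the circRNA with the most reads in each class, a detected member had 2.177 ± 0.15 reads and an intronic circRNA 2.198 ± 0.17 (SD, n = 6), a difference that did not pass the test (exact sign-flip permutation test, two-sided, p = 0.594). Without these circRNAs the recorded share of members lay 28.9 percentage points above that of intronic circRNAs. The share of detected circRNAs with 1 read in the library was 26.7% ± 7.49 for members (SD, n = 6) and 19.7% ± 5.69 for intronic circRNAs, higher in 6 of 6 libraries (exact, same p). Against exonic circRNAs (32.3% ± 4.02) it was lower in 4 of 6 libraries and the difference did not pass the test (exact, p = 0.125). Every circRNA in the table has at least 2 reads in at least 1 library. A circRNA with 1 read in a library was therefore always found in another library too. The share with 1 read is thus shaped by that filter and by recurrence between libraries, and is no measure of low abundance. With circRNAs of at least 3 reads alone, none of these calls was kept after adjustment. The share of reads with AC and CT was 15.4% ± 1.10 (SD, n = 6) for members and 24.3% ± 3.17 for intronic circRNAs, lower in 6 of 6 libraries (exact sign-flip permutation test, two-sided, p = 0.031), a comparison added after the data were seen. The letters, like a record, are fixed for each circRNA, so the comparison has the same limit. With circRNAs of at least 3 reads the difference was -2.96 percentage points, with p = 0.344 (exact, n = 6), and without the circRNA with the most reads in each class it was -14.9 percentage points.

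**Figure D5:**
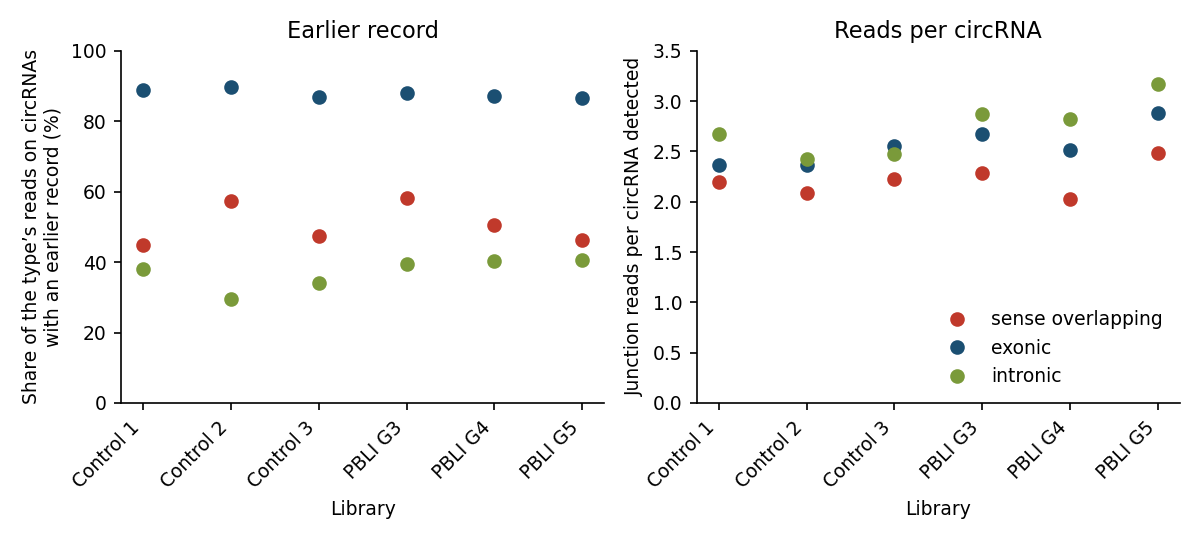
Left, share of the junction reads of a class that lay on circRNAs with an earlier record (%), and right, junction reads per circRNA detected, in each of the 6 libraries for sense overlapping, exonic and intronic circRNAs. On the left the sense overlapping points (44.8% to 58.2%) lie between the other classes in every library, and on the right they are at 2.02 to 2.49 reads, below the intronic points, which include the Tulp4 circle with 21.1% of the intronic reads.

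The mRNAs of the hosts were mostly not called. Of 366 host mRNAs tested by limma over 14760 mRNAs, 4 were higher and 4 lower past the adjusted threshold of 0.05 (1.09% each way), against 1.15% and 0.928% of all mRNAs. The rises were Hspa5, the chaperone BiP of the endoplasmic reticulum, from 143 ± 10.6 to 332 ± 31.0 FPKM (SD, n = 3, log2 fold change 1.21, adjusted p = 0.00473, limma), Prdx6, a peroxiredoxin (0.97), Timp3, an inhibitor of matrix proteases (0.77), and Hsp90ab1, a cytosolic chaperone (0.63). The falls were Fat3, from 8.30, 6.40 and 5.62 FPKM to 1.74, 1.66 and 1.55 FPKM (log2 fold change -1.74, adjusted p = 0.0108, limma), Col1a2, a chain of collagen I (-0.85), Fam214a (-0.79) and Sh3bgrl (-0.51). Every PBLI library had less Fat3 mRNA than every control library, while its circle had 2, 3 and 0 reads and then 4, 1 and 9. The circles of the other 7 hosts had at most 6 reads per host. Left out in turn, the libraries moved the counts to between 0 and 4 rises and 0 and 9 falls. Both counts were 0 without Control 2, and the 9 falls came without G5. The shares of all mRNAs called with a library left out were not counted. Whether the hosts moved apart from other mRNAs can therefore not be seen. Among the hosts of the members named here, Fat3 alone passed. In the control and PBLI groups Zfp644 was at 53.4 and 50.5 FPKM, Zeb1 at 70.1 and 64.1 FPKM, Egfl7 at 259.7 and 233.6 FPKM, and Galnt18 at 39.1 and 48.0 FPKM, with an adjusted p of 0.125 for the last (limma). Nebl was at 109 ± 6.81 and 138 ± 8.56 FPKM (SD, n = 3, adjusted p = 0.111, limma).

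Genes known to act on circRNAs were read out in 6 lists with 48 tested genes. None passed an adjusted p under 0.05, and 7 had an unadjusted p under 0.05 (14.6%, against 19.2% of all mRNAs tested, limma). Of the 7, 6 were among the 13 tested genes that favor back-splicing. Esrp1, an epithelial splicing factor, was at 8.83 ± 0.53 FPKM in the control group and 12.3 ± 0.93 FPKM in the PBLI group (SD, n = 3, log2 fold change 0.46, adjusted p = 0.102, limma). Hnrnpl, a splicing regulator, was at 166 ± 18.4 and 130 ± 12.2 FPKM (-0.35, adjusted p = 0.158, limma). Nova1, a neuronal splicing factor, was at 2.19 and 1.42 FPKM. Quaking (Qk), which binds introns beside circularized exons, was at 159.9 ± 4.80 and 175.6 ± 21.8 FPKM (SD, n = 3, adjusted p = 0.532, limma).

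Among the 5 genes that unwind or edit paired introns, the lowest adjusted p was 0.282, that of the helicase Ddx17. The RNA editing enzyme Adar was at 26.9 ± 4.30 and 24.0 ± 3.00 FPKM and the helicase Dhx9 at 38.4 ± 3.41 and 37.5 ± 4.78 FPKM (SD, n = 3). Among 13 core spliceosome genes Slu7 had the lowest adjusted p, 0.234, at 29.2 and 37.6 FPKM. Among 9 genes of circRNA decay the lowest was 0.284, that of Rnaseh1. The lowest was 0.297 among 5 genes of circRNA export, that of Ythdc1, and 0.652 among 3 genes of lariat debranching and intron decay, that of Dbr1 (limma throughout).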

How the data were processed

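RNA of 6 lung libraries was sequenced as 150 bp pairs on a stranded kit; junctions were found by the authors with STAR (2.5.1b, per the submitters' processing notes) and DCC on mm10 after trimming with cutadapt. The authors deposited raw counts of back-splice junction reads, with 2 or more for each circRNA. The deposited mRNA values are FPKM per protein-coding gene, made by the authors with hisat2 and cuffdiff, and the sources used here do not state its library scaling. They give no sequencing depth; the totals of junction reads, 2513 to 4733 per library, limit the precision. The 24 columns with log-scaled circRNA counts, mRNA counts and lncRNA values were not used.

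Members, gene lists and tests were chosen with earlier results of these data known. Counts were tested over all 3696 circRNAs with edgeR (4.0.16; TMM, quasi-likelihood test, no filter), with DESeq2 (1.42.0) as an alternative, and log2(FPKM + 0.5) with limma (3.58.1, mean-variance trend) for mRNAs that reached 0.5 FPKM in any library, adjusted by Benjamini and Hochberg's method. Shares and numbers per library were compared by exact permutation tests, and p-values measure the spread between pools. A group at 0 was set against 3 reads, with the reads of the other group taken as exact. The ends were read with pysam (0.24.0) from RefSeq GRCm38 sequence and placed on GENCODE M21 exons; miRNAs came from RefSeq. Members named are those the study lists (Zcchc8, Zzz3, Nbeal1), the 12 with the most reads, those with reads in all 6 libraries, 5 on each side by smallest p (ties by chromosome and start), and those of the 5 hosts with the most members or member reads; host mRNAs are those of these members and those called, and pathway genes the smallest p of each list with Adar, Qk and Dhx9. Host names were matched to the mRNA table by symbol and then by synonym (369 of 400). Some items that this rule gives are not reported here. The scripts were tested on simulated data. Python (3.11.15) with scipy (1.17.1), pandas (2.3.3) and numpy (2.4.6) served for the exact tests, matplotlib (3.10.9) for the figures and R (4.3.3) for the fits.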

Additional observations from a re-analysis of the deposited data

How the results depend on the processing

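No paired analysis was possible because the columns of the PBLI libraries carry no sample numbers. No member passed an adjusted p under 0.05 under any of the 12 alternatives. The number of members called lower at the study's thresholds was 4 with RLE size factors (0.676% of all circRNAs) and 4 with total circRNA reads alone (0.703% of all), namely Zcchc8, Zzz3, Nbeal1 and Wdr49. It was 13 in edgeR's likelihood ratio test (1.79% of all), 0 in edgeR's exact test (0.216%), 0 in DESeq2 (0.189%) and 0 to 2 with each library left out (0.189% to 0.379%). With circRNAs of at least 10 reads alone it was 1 (2.07% of the 435 tested). That call was a member other than Zcchc8, whose 6 reads left it out of this setting. The number called higher was 6 in the likelihood ratio test (2.25% of all) and 0 to 2 with each library left out (0.595% to 0.947%). The log2 fold changes of the 10 members named by p kept their sign wherever they could be fitted. Most of them had no reads in 1 group, where no setting can change the sign, so this is no measure of their stability. Zzz3 and Nbeal1 could not be fitted without Control 1, which held all their reads. TMM set the median log2 fold change of the 435 circRNAs with at least 10 reads to 0.33, against 0.10 with total reads; for the 24 members with that many reads it was 0.58 and 0.36, with 17 higher and 7 lower under TMM and 15 and 9 under total reads.

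The difference in the share of circRNA reads on members stayed negative under every alternative run, from -0.16 percentage points with circRNAs of at least 10 reads (exact permutation p = 0.8) to -1.31, and was -0.34 to -1.31 with each library left out. The difference in members detected was 15 to 38.5 with each library left out, and -1.52 to 15.02 after rarefying, turning at the library G5. The difference in the share of reads with an earlier record turned to -0.35 percentage points with circRNAs of at least 3 reads, and was -1.42 to 5.60 with each library left out. That within hosts of both types turned to 0.80 with at least 3 reads, and was -3.90 to -0.79 with each library left out, and that in the share of AC and CT was -1.04 to 0.64. The cause of these turns was not tested.

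With 5 libraries the sign-flip test cannot go below 0.0625, so the calls against exonic and intronic circRNAs were lost by construction with each library left out. There the recorded share differed by -38.4 to -35.6 and 11.05 to 15.5 percentage points, the reads per circRNA by -0.38 to -0.31 and -0.58 to -0.47, the share with 1 read by -6.97 to -4.54 and 5.81 to 8.15, and the share of AC and CT against intronic by -9.62 to -7.99. With at least 3 reads the differences were -25.6 and 12.5 percentage points, -0.32 and -1.02 reads, and 1.41 (turned) and 3.42 percentage points, and -2.96 for AC and CT. With circRNAs of AG and GT alone the calls on recorded share, reads per circRNA and share with 1 read were kept, the difference in reads from intronic circRNAs being -0.94. Without the circRNA with the most reads in each class, the difference in reads from intronic circRNAs was -0.021 and did not pass the test, since the Tulp4 circle was left out, and the other calls on these measures and on AC and CT were kept. These 2 alternatives, the scaling of single members to library reads and both comparisons of the AC and CT share were added after the data were seen.

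Host mRNAs called numbered 1 higher and 2 lower without a filter, and 0 to 4 higher and 0 to 9 lower with each library left out. Pathway mRNAs called numbered 1 with quantile normalization and 0 to 1 with each library left out. For these alternatives the shares of all mRNAs called were not counted, so the counts cannot be read as particular to hosts or pathway genes. With 0 to 12 reads per library, counting error limits every single member.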
